A study of Mus musculus with 2 samples.

Results

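Mt1 and Mt2 encode the metallothioneins metallothionein 1 and metallothionein 2, and the report covers every RNA Pol II interaction with an anchor within 1 kb of either gene. The 2 genes were taken from the 12749 protein-coding genes that lay within 1 kb of an anchor in at least 1 library, because their anchor was among those with the most called intrachromosomal partners in control cells. Intrachromosomal values are therefore given as a description with no test, and tests were run on interchromosomal values only. RNA Pol II ChIA-PET ligates DNA fragments that are held near each other in RNA Pol II immunoprecipitates, so each paired-end tag (PET) that joins 2 peaks, called anchors here, counts as 1 contact. A PET can also arise when unrelated fragments are ligated by chance, which affects interchromosomal PETs and pairs of a single PET most, and these data do not separate such PETs from others. The cells were mouse embryonic stem cells (ESCs), and the knockout cells carried CreERT2, a Cre recombinase switched on by tamoxifen, and Roninflox/flox alleles. By the paper's protocol, such cells were given tamoxifen for 4 days (Ronin knockout, Ronin KO), and control cells were given ethanol instead. The protocol reads as if both groups shared this genotype, but the paper also lists a Roninflox/flox control line named without CreERT2. It does not say which line gave the control library. The presence of tamoxifen and the loss of Ronin cannot be told apart, nor can a possible difference in line. Each condition had 1 library that the authors had pooled from 2 experiments. Variation between experiments is thus not visible here, and the 95% intervals below cover counting error only. Because the data are contacts, neither the loss of Ronin nor the ESC identity could be checked against expression markers.

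Metallothioneins are small cysteine-rich proteins that bind zinc and copper, buffer the free pool of these metals, and take up cadmium and other toxic metals. Mt1 and Mt2 are expressed in most tissues and are induced together by metals through metal regulatory transcription factor 1 (Mtf1), which binds metal response elements in their promoters, and by glucocorticoids and oxidative stress. Mt3 and Mt4, the other genes of the cluster, are expressed mainly in brain and in stratified epithelia, respectively.

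In mm9, Mt2 (ENSMUSG00000031762.6) lies at chr8:96696518-96697467 and Mt1 (ENSMUSG00000031765.6) at chr8:96702989-96704225, both on the plus strand. The 250 bases before the annotated start of each gene are shown because both promoters fall inside the anchor. They were taken from RefSeq (GRCm38.p6) and placed in mm9 by exact match, at chr8:96702739-96702988 for Mt1 and chr8:96696268-96696517 for Mt2, plus strand. Capitals mark the core of the metal response element, searched as TGCACNC and TGCGCNC on both strands.
Mt1 promoter: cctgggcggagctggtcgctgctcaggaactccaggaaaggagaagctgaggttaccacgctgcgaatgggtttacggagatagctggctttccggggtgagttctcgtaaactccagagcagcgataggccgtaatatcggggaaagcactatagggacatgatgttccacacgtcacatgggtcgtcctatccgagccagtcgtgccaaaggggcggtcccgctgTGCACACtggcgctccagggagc
Mt2 promoter: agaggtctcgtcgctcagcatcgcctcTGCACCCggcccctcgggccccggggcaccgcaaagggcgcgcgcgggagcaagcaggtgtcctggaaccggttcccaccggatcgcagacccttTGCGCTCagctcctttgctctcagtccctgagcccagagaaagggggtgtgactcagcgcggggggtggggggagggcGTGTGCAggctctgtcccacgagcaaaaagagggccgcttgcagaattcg
Over the 300 bases that run from 250 before to 50 after the annotated start, Mt1 held 3 cores and Mt2 held 4. Of 32851 RefSeq promoters of this length, 25.7% held at least 1 core, 1.97% at least 3 and 0.517% at least 4. The promoters of Mt3 and Mt4 held 1 core each. Both annotated starts lay upstream of a TATAAA sequence, which began at base 122 of the annotated Mt1 gene and base 136 of Mt2, and a further 4 cores per gene lay between the annotated start and this sequence, counting those within the first 50 bases. The bases printed above end at the annotated start and so leave out the stretch next to TATAAA. Within the 250 bases before TATAAA each gene held 5 cores, a window that was not set against the RefSeq promoters. The cores nearest to the TATAAA sequence are shown with 10 bases on each side. That of Mt1 was at chr8:96703087-96703093 and that of Mt2 at chr8:96696629-96696635, both on the plus strand.
Mt1, last core before TATAAA: gcaaacccttTGCGCCCggactcgtcc
Mt2, last core before TATAAA: gcggagctttTGCGCTCgacccaatac
Along the whole control anchor there were 47 cores, or 1.63 per kb, against 0.686 per kb over all control anchors. The Ronin-binding motif was found in 0.673% of the RefSeq promoters, and no exact copy of it was present in either promoter or anywhere in the anchor in either library. A sequence match is a description of letters and does not show binding.

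Mt1 and Mt2 shared 1 anchor in both libraries, so every value below belongs to both genes and cannot be divided between them. The anchor ran over chr8:96690243-96719130 in control cells (28888 bp) and over chr8:96690164-96719118 in Ronin knockout cells (28955 bp). It was wide, since the median anchor measured 3278 bp in control and 4739 bp in knockout cells, and 3.38% and 4.96% of the anchors, respectively, were at least as wide. No other protein-coding gene lay within 1 kb of it. In all, 455 PETs linked it to other anchors in control cells and 156 did in knockout cells, which was 34.3% of control (95% exact interval 28.4 to 41.2). The authors counted 483 and 172 PETs at the anchor, 28 and 16 above the PETs in the deposited pairs. These PETs formed 431 of the 128267 pairs of anchors in the control library and 148 of the 44328 pairs in the knockout library.

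The linking PETs were concentrated on the metallothionein anchor. Among the 27 other control anchors of the surrounding genes, none had more than 42 linking PETs, and among the 16 knockout anchors none had more than 25. Both maxima belonged to Herpud1, which encodes a membrane protein of endoplasmic reticulum-associated degradation. The anchor of Nudt21, which encodes a subunit of the mRNA cleavage factor, and of Ogfod1 had 26 linking PETs in control and 10 in knockout cells. Bbs2, which encodes a component of the ciliary BBSome, had 15 and 7 at its start, and the anchor at the start of Nup93, which encodes a nuclear pore protein, also had 15 and 7. Mt3 had 2 linking PETs in each library, at an anchor near its 3′ end, and no anchor lay within 1 kb of Mt4.

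**Figure D1:**
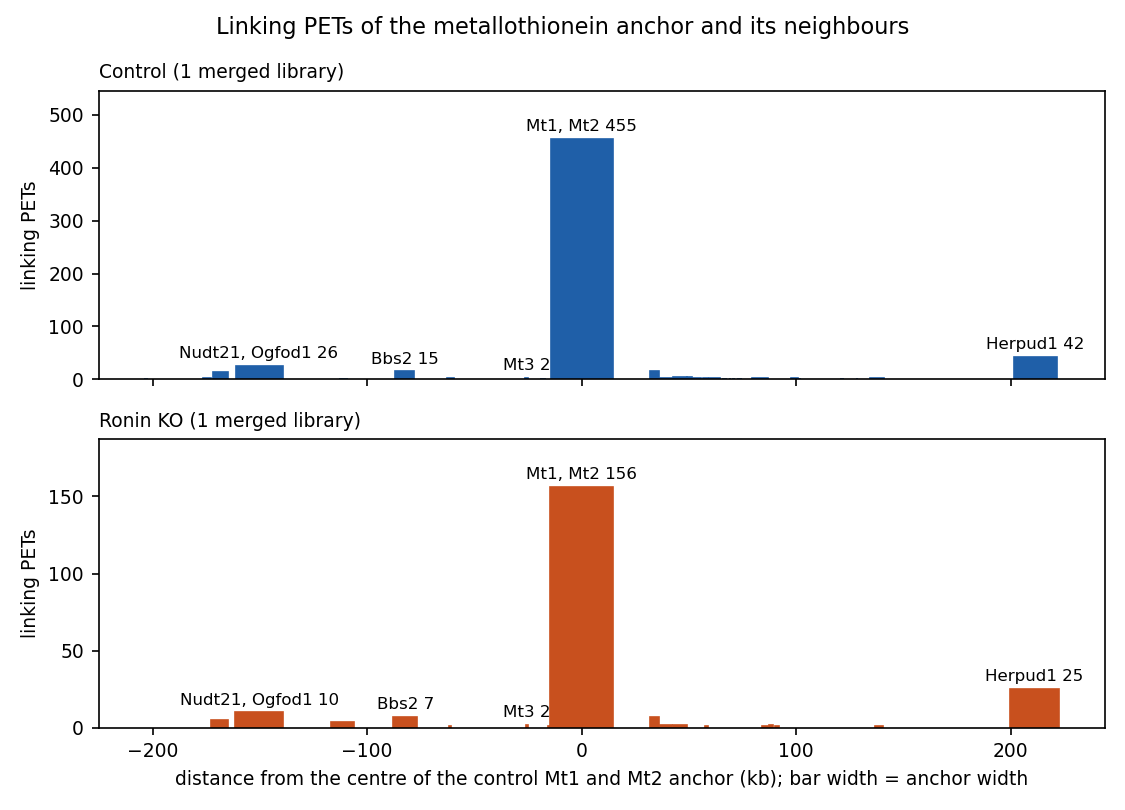
Linking PETs (y axis, linear, different maxima in the panels) of the anchor with Mt1 and Mt2 and of the other anchors around it, by distance in kb from the centre of the control anchor. Bars are drawn as wide as the anchors, and the metallothionein anchor reaches 455 linking PETs in control and 156 in Ronin knockout cells, above the 42 and 25 of Herpud1.

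Ranked by the number of partners of both classes, the metallothionein anchor was 6th of 27757 control anchors and 6th of 17539 knockout anchors. Among anchors of 20 to 40 kb it ranked 2nd in both libraries, of 1364 in control and 1344 in knockout cells, where the median numbers of partners were 37 and 14. It had 14.9 partners per kb in control and 5.11 in knockout cells, against medians of 1.39 and 0.527 for anchors of this width. By linking PETs it ranked lower, at 28th in control and 49th in knockout cells, and nearly every partner was reached by a single PET. Control pairs held 1.06 PETs on average and knockout pairs 1.05, and no pair held more than 3.

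Intrachromosomal contacts were the smaller class. They made up 37 of 455 linking PETs in control cells (8.13%, 95% exact interval 5.79 to 11.0) and 9 of 156 in knockout cells (5.77%, 2.67 to 10.7). Over the whole libraries, intrachromosomal PETs were 15.8% and 18.6% of all PETs. The anchor had 34 intrachromosomal partners in control and 8 in knockout cells, of which 23 and 6 were called, that is, had an adjusted p-value under 0.05 in the authors' hypergeometric test. The paper also requires 3 independent PETs for a high-confidence interaction. No intrachromosomal pair of this anchor held 3 PETs in either library, so none of the called partners met that definition. The called PETs numbered 26 in control and 7 in knockout cells, which was 26.9% of control (9.87 to 63.7), or 54.7% once scaled to equal intrachromosomal totals. Over the whole libraries called PETs were at 50.2% of control. These are the values the genes were chosen by, and 305 of 473 anchors with at least 10 called control PETs (64.5%) also had at most 1/2 of them in knockout cells. The 473 anchors were picked by their control PETs too, which favours a lower knockout count. Called interactions of the whole libraries fell from 11599 to 4931 (42.5%). By called partners the anchor was 2nd in control cells and 89th in knockout cells, where 63 anchors had the same number.

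The authors' test weighs the PETs of a pair against the PETs counted at each end. At the metallothionein anchor, whether a single PET was called was therefore set by how many PETs the partner anchor had in all. The 20 called single-PET pairs of control cells joined partners with counts of 1 to 30, whereas the 11 that were not called joined partners with counts of 36 to 147. In knockout cells the 5 called single-PET pairs had partner counts of 2 to 30 and the 2 that were not called had 63 and 1039. Called partners thus leave out busier anchors that the metallothionein anchor touched as often, among them those of Fgfr1, Sall1 and the Elavl1 cluster in control cells, which were singled out after their values were seen. Over all anchors, 94.1% of control and 97.9% of knockout intrachromosomal pairs were called, against 67.6% (49.5 to 82.6) and 75% (34.9 to 96.8) at this anchor. The test also takes in the anchor's own count, which was 483 in control and 172 in knockout cells. Its part in the lower shares was not tested.

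Most called partners were far away. The median distance of control partners was 30.5 Mb and that of knockout partners 19.4 Mb, against 8.63 and 3.97 Mb over all called interactions. Distances over 10 Mb were found for 19 of 23 control partners (82.6%, 61.2 to 95) and 5 of 6 knockout partners (83.3%, 35.9 to 99.6), against 48.6% and 43.6% over all called interactions. The 23 control partners lay on both sides of the anchor, 16 at lower and 7 at higher coordinates. The plot of partners by distance shows them spread over the chromosome without a cluster next to the genes.

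**Figure D2:**
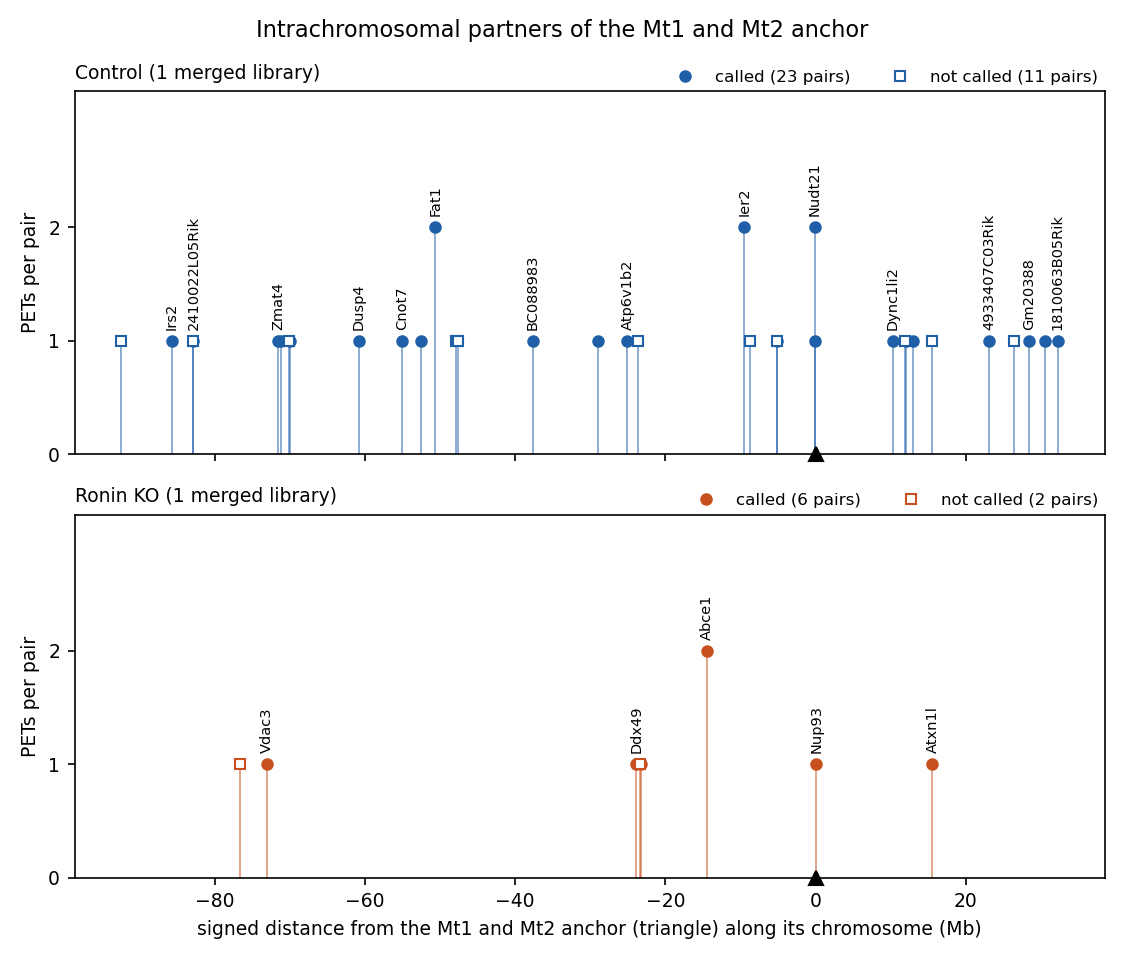
Intrachromosomal partners of the Mt1 and Mt2 anchor by signed distance in Mb (x axis) and PETs per pair (y axis), with called pairs as filled circles and pairs not called as open squares. Names give the first gene of called partners and are left off where they would overprint; 23 control and 6 Ronin knockout pairs were called, and no pair exceeds 2 PETs.

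Of the 23 control partners, 3 were joined by 2 PETs. These were the anchor of Fat1, a protocadherin of the cell surface, at 50.6 Mb, the anchor of Ier2, an immediate early gene, and Nacc1, a transcriptional corepressor, at 9.52 Mb, and the neighbouring anchor of Nudt21 and Ogfod1 at 150 kb. The other 20 were joined by 1 PET each. The nearest of them was Bbs2 at 82.6 kb, and the farthest was Irs2, an adaptor of insulin signalling, at 85.7 Mb. Partners with roles in signalling and gene regulation were Dusp4, a MAP kinase phosphatase, at 60.8 Mb, Prmt7, an arginine methyltransferase, at 12.1 Mb, Zfp828 with 2410022L05Rik at 82.8 Mb, Whsc1l1, a histone methyltransferase, with Letm2 at 70.0 Mb, Zmat4 at 71.5 Mb, and Cnot7, a deadenylase subunit, with Zdhhc2 and Vps37a at 55.1 Mb. Partners with roles in transport were Atp6v1b2, a subunit of the vacuolar proton pump, at 25.1 Mb, Dync1li2, a dynein light intermediate chain, at 10.2 Mb, and Trappc2l, a subunit of a vesicle tethering complex, with Pabpn1l and Gm20388 at 28.4 Mb. The remaining partners with genes were Triml1 at 52.5 Mb, Fbxo8 with BC088983 at 37.7 Mb, Ttc13 at 30.5 Mb, 1810063B05Rik with Gm17296 at 32.2 Mb, 1810011O10Rik at 71.2 Mb and 4933407C03Rik at 23.1 Mb. Another 3 partners, at 5.19, 13.0 and 29.0 Mb, had no protein-coding gene within 1 kb.

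In knockout cells the anchor of Otud4, a deubiquitinase, Abce1, a ribosome recycling factor, and Anapc10, a subunit of the anaphase-promoting complex, was joined by 2 PETs at 14.5 Mb. The other 5 called partners were joined by 1 PET each. Among them, Vdac3, an outer mitochondrial membrane channel, was at 73.0 Mb, Nup93 at 88.4 kb, Sugp2 with Homer3 and Ddx49 at 23.9 Mb, and Zfp821 with Atxn1l at 15.5 Mb. None of the 23 called control partners was paired with the metallothionein anchor in knockout cells, which allows a share of up to 14.8% (exact binomial interval). Of the called control pairs of all other anchors, 559 of 11576 (4.83%) were found again as any knockout pair, and 43 of 5622 (0.765%) of those over 10 Mb. The single intrachromosomal partner found in both libraries was the anchor of Atxn1l and Zfp821. It was joined by 1 PET in each library, with an adjusted p of 0.143 in control cells, where the partner's count was 107, and 0.0131 in knockout cells, where it was 9.

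The partner anchors themselves were mostly still present. Of the 23 called control partners, 20 overlapped an anchor of the knockout library. Their PETs with anchors other than that of Mt1 and Mt2 fell from 573 in the control library to 198 in the knockout library (34.6%, 29.2 to 40.7). Over all control partners the corresponding PETs fell from 32985 to 15482 (46.9%), and over the whole libraries PETs fell from 156097 to 65276 (41.8%). Control partners were chosen by PETs of the control library, which favours a lower knockout percentage. For all partners in knockout cells the PETs went from 21916 to 14536 (66.3%), and for the 6 called ones from 383 to 154 (40.2%). The sums over all control and over all knockout partners both include the anchor of Gm10800. It had 9516 PETs in all in control and 7485 in knockout cells. The 46.9% and the 66.3% thus rest in large part on this anchor and do not describe a typical partner. Of all 431 control partners, 383 overlapped a knockout anchor (88.9%, 85.5 to 91.7), close to the 90.2% of all ends of control pairs.

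Interchromosomal contacts were not used to choose the genes. The anchor had 397 interchromosomal pairs and 418 PETs in control cells, and 140 pairs and 147 PETs in knockout cells, so the PETs were at 35.2% of control (28.9 to 42.5). The whole libraries held 131434 and 53136 interchromosomal PETs (40.4%) in 115937 and 39291 pairs (33.9%). The metallothionein anchor was thus below the libraries' percentage in PETs and above it in pairs (35.3%). Knockout PETs made up 26.0% (22.4 to 29.8) of the PETs of both libraries at this anchor, against 28.8% of all interchromosomal PETs. Relative to the libraries, the ratio was 0.870 (0.716 to 1.05), with p = 0.150 and an adjusted p of 0.803 in a two-sided exact binomial test over 6564 anchors with at least 10 interchromosomal PETs. In this test 40 anchors (0.609%) were lower and 40 (0.609%) higher in knockout cells. A difference from the libraries was therefore not detectable at this depth, and the test compares 2 libraries, not 2 conditions. The outcome depended on which pairs entered: over pairs of at least 2 PETs, with 41 control and 12 knockout PETs at this anchor, the ratio was 0.345 (adjusted p = 0.00383, exact binomial test), whereas it was 1.04 (adjusted p = 1, exact binomial test) with each pair counted once.

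Among the 339 anchors with at least 100 control interchromosomal PETs, 313 (92.3%) had at most 1/2 of them in knockout cells, and the median was 31.8% of control (interquartile range 27.0 to 37.6). The metallothionein anchor was within this range, and 222 of the 339 had a lower percentage. All 339 were chosen by their control PETs, and all interchromosomal PETs were at 40.4% of control. Most of the 339 would thus lie under 1/2 without any change particular to them. Without pairs that held an anchor of over 1000 PETs, an alternative chosen after seeing the data, the ratio at the metallothionein anchor relative to the libraries was 0.984 (adjusted p = 1 in the exact binomial test).

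**Figure D3:**
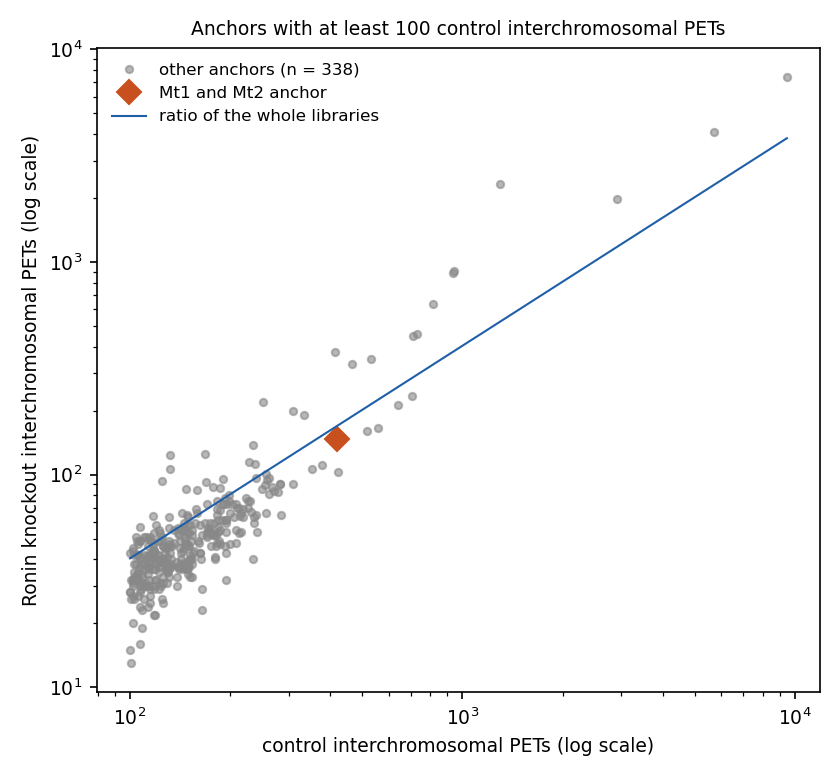
Interchromosomal PETs of the control (x axis) and the Ronin knockout library (y axis), both on log scales, for the 339 anchors with at least 100 control PETs, where each point is 1 anchor and the line is the ratio of the whole libraries (40.4%). The metallothionein anchor (diamond, 418 and 147 PETs) lies just under the line and within the cloud of the other anchors.

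The ratio was also set against the 9 other anchors among the 10 control anchors with the most called partners. The anchor of Eif4a1, a translation initiation helicase, had 171 and 54 interchromosomal PETs (31.6%). The ratio at Mt1 and Mt2 over that at Eif4a1 was 1.11 (0.778 to 1.59, normal approximation on the log scale), with p = 0.588 and an adjusted p of 0.588 over 2 comparisons in a two-sided Fisher's exact test. The remaining 8 anchors together had 2476 and 802 (32.4%), and the corresponding ratio was 1.09 (0.885 to 1.33, p = 0.429, adjusted p = 0.588, Fisher's exact test). Single anchors ran from 25.7% at Snx5, a sorting nexin, to 38.2% at H3f3b, a histone H3.3 gene, and 6 of the other 9 were below Mt1 and Mt2. The 95% intervals of the single anchors overlapped that of Mt1 and Mt2 in every case.

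**Figure D4:**
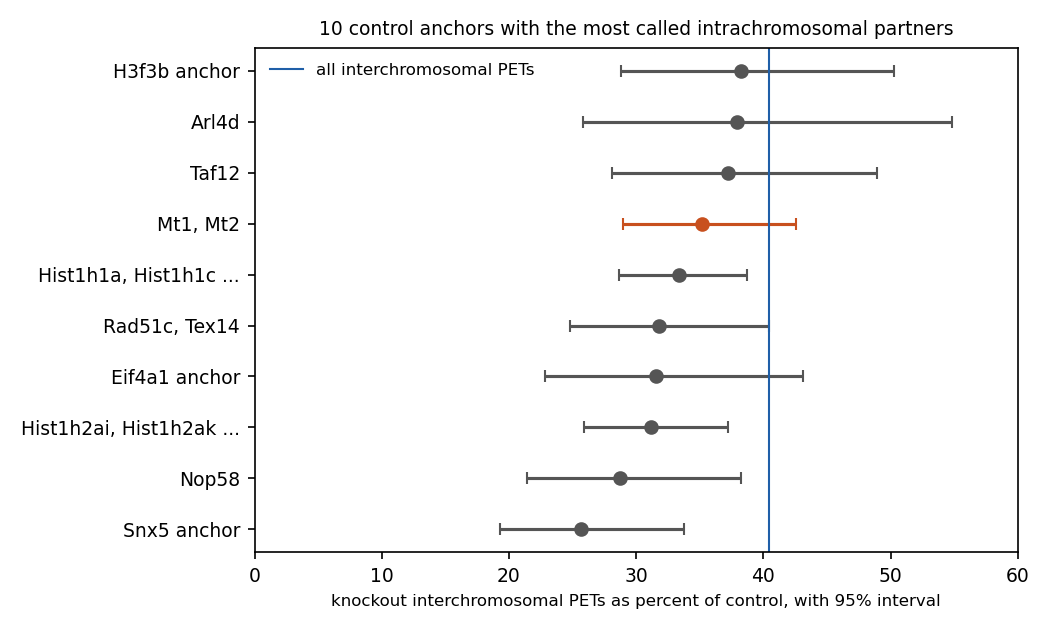
Knockout interchromosomal PETs as percent of control (x axis) for the 10 control anchors with the most called intrachromosomal partners, with 95% exact intervals that cover counting error only. The vertical line is the ratio of all interchromosomal PETs (40.4%), and Mt1 and Mt2 are at 35.2% (28.9 to 42.5), between 25.7% and 38.2% of the others.

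Partners were spread over the genome, with at least 1 on each of the 19 other chromosomes in both libraries. In control cells chromosome 11 held most of them, with 42 pairs (10.6%), and 10.4% of the interchromosomal pairs of all other chromosome 8 anchors went there. Chromosome 2 held 39 pairs (9.82%, against 8.71%) and chromosome 3 held 15 (3.78%, against 5.54%). In knockout cells chromosome 2 held 17 of 140 pairs (12.1%, against 8.94%), chromosome 3 held 10 (7.14%, against 4.78%) and chromosome 6 held 3 (2.14%, against 4.30%).

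**Figure D5:**
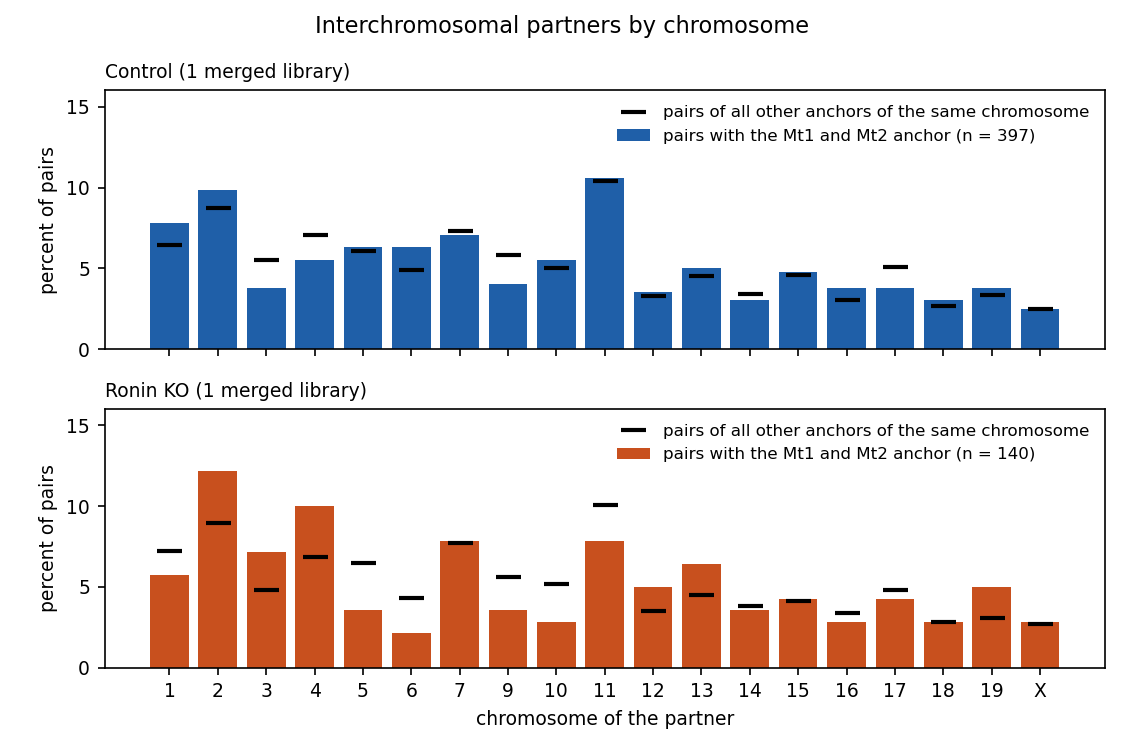
Share of the interchromosomal pairs of the metallothionein anchor that went to each chromosome (bars, percent, 397 control and 140 Ronin knockout pairs), with the share for the pairs of all other chromosome 8 anchors as black lines. Bars follow the lines in control cells, with chromosome 11 at 10.6% and 10.4%, and scatter more in knockout cells, where chromosome 6 rests on 3 pairs.

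Interchromosomal pairs of at least 2 PETs numbered 20 of 397 in control (5.04%, 3.10 to 7.67) and 5 of 140 in knockout cells (3.57%, 1.17 to 8.14). Over the pairs of all other anchors the shares were 1.30% and 1.51%. Of the 20 control pairs, 1 was found again in knockout cells, by a single PET, and 299 of 1497 such pairs of other anchors were found again. The highest control value was 3 PETs with the short anchor of Gm10800, which had 9516 PETs in all in control and 7485 in knockout cells and was joined by 1 PET there. Chance ligation with an anchor of so many PETs was not tested, so these PETs are not read as a preferred contact. The other control partners were joined by 2 PETs each. They included genes of stress and heat shock responses, namely Hspa4 and Dnajb4, which encode a chaperone and a co-chaperone, and Atf4, a transcription factor of the integrated stress response, with Smcr7l and Rps19bp1. The anchor of Dnajb4 also held Fubp1 and Nexn, and that of Hspa4 shared an identical stretch of at least 100 bp with the metallothionein anchor. Genes of translation and RNA processing were Eef1a1, an elongation factor, with Mto1, Rpl30, a ribosomal protein, with Matn2, the RNA helicase gene Dhx9 with 1700012A16Rik, the RNA helicase gene Ddx42 with Ftsj3, Psmc5, Smarcd2 and Tcam1, and Matr3 with Paip2 and Slc23a1. Genes of chromatin and transcription were Jarid2, a component of Polycomb repressive complex 2, Ing3 and Myst2, which belong to histone acetyltransferase complexes (Myst2 with Tac4), Klf9, a Krüppel-like factor, Pcif1 with Zfp335, and a histone cluster with Hist1h1d, Hist1h3e, Hist1h3f and Hist1h4f. The list was completed by Fgf4, a growth factor of ESCs, Trpm7, a channel that conducts magnesium and zinc, Ube2r2 with Ubap2, Tmem167b and an anchor on chromosome X without a protein-coding gene.

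In knockout cells 3 PETs joined the metallothionein anchor to Man1b1, a mannosidase of glycoprotein quality control. That anchor had 4 PETs in all and shared an identical stretch of at least 100 bp with the metallothionein anchor. Another 3 PETs joined it to the anchor of Mid1, a ubiquitin ligase, and Gm17379, which had 452 PETs in all. The pairs with 2 PETs were Eif5, a translation initiation factor, Ppdpf with Ptk6, and Rpl8, a ribosomal protein, with Zfp7, Commd5 and Zfp647. Whether identical sequence placed any of these PETs was not tested.

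The partners found in both libraries numbered 16, which was 3.71% (2.14 to 5.96) of the 431 in control and 10.8% (6.31 to 17) of the 148 in knockout cells. Of these, 15 were interchromosomal. Over the pairs of all other anchors, 1.38% of control and 3.97% of knockout pairs were found again. Among the other 9 highly connected anchors, between 1.42% and 5.95% of the control pairs were found again. The recurring partners included Atf6, a transcription factor of the unfolded protein response, with Dusp12, Dedd, Med19 and Med1, which encode Mediator subunits (Med1 with Cdk12, Med19 with Tmx2 and Zdhhc5), Rps21 with Cables2, Rps9 with Mboat7 and Tsen34, Eif4b with Tenc1, Rcor2 with Mark2, Zfp628 with Nat14, Tex14, Ppdpf with Ptk6, Gm10800, and the histone clusters with Hist1h1a and Hist1h1b. With the exceptions of Gm10800 (3 and 1 PETs) and Ppdpf with Ptk6 (1 and 2), each was joined by 1 PET in either library. The Atf6 and Ppdpf anchors shared an identical stretch of at least 100 bp with the metallothionein anchor, as did 10 control and 7 knockout partners in all.

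Many partners lay at promoters. A protein-coding transcription start lay within 2500 bp of 292 of 431 control partners (67.7%, 63.1 to 72.1) and 109 of 148 knockout partners (73.6%, 65.8 to 80.5). Over all ends of pairs, where each anchor counts once per pair, the shares were 73.1% and 75.9%. Over all anchors counted once they were 38.9% and 50.2%, and the partners were wider than that background, with medians of 16035 and 16949 bp. The Ronin-binding motif was present in 12 control partners (2.78%, 1.45 to 4.81) and 5 knockout partners (3.38%, 1.11 to 7.71), against 2.64% and 2.98% of all ends of pairs. Among the partners with at least 2 PETs, 3 control anchors held it. Their motifs are shown in capitals with 7 bases on each side, read on the strand of the motif, in mm9.
Ube2r2 and Ubap2, chr4:41222491-41222505, minus strand: cagcactCTGGGAGTTGTAGTTcgccctc
Jarid2, chr13:44826095-44826109, plus strand: gggcacgCTGGGAATTGTAGTTcttcgct
Ing3, chr6:21899483-21899497, minus strand: cggtattCTGGGAAATGTAGTCttctttt
All 3 were joined to Mt1 and Mt2 by 2 PETs in control cells and by none in knockout cells. The same held for 16 of the 17 other interchromosomal control partners with at least 2 PETs and for the 3 intrachromosomal ones.

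The other genes of metal handling were described from a list of 40 that includes Mt1 and Mt2. Of the remaining genes, 32 had PETs, and 30 of them had fewer PETs in knockout cells, 1 had as many and 1 had more. Together they had 859 control and 317 knockout PETs, of which 80 and 34 were intrachromosomal. The median was 37.5% of control over the 31 genes with control PETs, against 34.8% over all 12502 genes with control PETs, so the list's median lay near that of all genes. The knockout library held 41.8% of the control PETs, so a fall at 30 of 32 genes is not particular to the list. Mtf1, the activator of Mt1 and Mt2, had 41 and 18 PETs, of which 5 and 0 were intrachromosomal. Of the genes for iron storage and uptake, Ftl1 (ferritin light chain) had 178 and 72 PETs, Fth1 (ferritin heavy chain) 41 and 22, and Tfrc (transferrin receptor) 55 and 17. Of the copper genes, Atp7a, a copper pump, had 58 and 14 PETs, Atp7b 23 and 7, Slc31a1, the copper importer, 34 and 17, and Atox1, a copper chaperone, 12 and 5. Zinc importers of the Slc39 family included Slc39a9 with 72 and 14, Slc39a1 with 56 and 15, Slc39a14 with 49 and 16, Slc39a7 with 31 and 14, Slc39a13 with 30 and 20, Slc39a4 with 27 and 8, and Slc39a10 with 19 and 9. Zinc exporters of the Slc30 family included Slc30a5 with 26 and 10, Slc30a1 with 17 and 3, and Slc30a9 with 17 and 4. The other genes with at least 5 PETs, namely Slc30a3, Slc30a4, Slc30a6, Slc30a7, Slc39a3, Slc39a6, Slc39a11 and the iron importer Slc11a2, had between 5 and 10 control PETs and between 1 and 6 knockout PETs. None of these genes came near the 455 and 156 of Mt1 and Mt2. Their anchors touched that of Mt1 and Mt2 at Atp7a in control cells and at Slc39a10 and Ftl1 in knockout cells, by 1 PET each. The touched anchor of Atp7a was shared with Cox7b and Magt1, and that of Ftl1 with Bax and Gys1. PETs at shared anchors cannot be credited to the metal genes alone.

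The genes most like Mt1 and Mt2 were sought over 4 values, the intrachromosomal and interchromosomal PETs of each library, as the Euclidean distance on the log2(x + 1) scale. Mt1 and Mt2 had 37 and 418 in control and 9 and 147 in knockout cells. Fgfr2, a fibroblast growth factor receptor, was the closest at a distance of 0.55, with 37 and 373 in control and 10 and 103 in knockout cells. Taf6l, a subunit of a histone acetyltransferase complex, followed at 0.68 with 25 and 471, then 7 and 166. Nfs1, a cysteine desulfurase, was at 0.74 with 32 and 319, then 13 and 116, Baz2a at 0.98 with 27 and 328, then 13 and 94, and nonagouti (a) at 1.1 with 29 and 287, then 12 and 83. With 4 values from 2 libraries, this likeness is a description of PET counts. The values of a gene covered all of its anchors, and Mt1 and Mt2 had 1. Fgfr2 had several, among them control anchors with 10 PETs in all at chr7:137394371-137411429 and 75 at chr7:140267482-140319428. The second also lay at Ctbp2. The annotated Fgfr2 reached both, so its values include PETs at anchors of other genes and are not particular to the receptor gene. A control anchor of Nfs1 had 71 and also lay at Cpne1 and Rbm12. The likeness to Fgfr2 and Nfs1 thus sets a single anchor against sums over anchors.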

How the data were processed

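RNA Pol II ChIA-PET was measured in 2 libraries of mouse ESCs, 1 control and 1 Ronin knockout. After linker removal (cutadapt), the authors aligned each mate to mm9 (Bowtie 1.1.1), collapsed duplicate PETs, defined peaks (MACS 1.4.2), discarded intrachromosomal PETs shorter than 4 kb and pooled 2 experiments per condition. The deposited values are raw counts of PETs for each peak pair and each peak, a signed distance score in bp, and a hypergeometric p-value for each pair with its Benjamini-Hochberg adjusted value. Pooling leaves no replicate spread, so intervals cover counting error only. The libraries held 156097 control and 65276 knockout PETs.

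The metallothionein anchor is the one within 1 kb of Mt1 or Mt2 (GENCODE vM1, NCBIM37). Anchors of both libraries were merged at an overlap of 1 bp. Tests were a two-sided exact binomial test per merged anchor and Fisher's exact test, both adjusted by Benjamini-Hochberg. The null of the binomial test was the knockout share of all interchromosomal PETs. Only the binomial test was tried on simulated data, which held counting error and no variation between experiments. The genes, lists and rules were chosen with earlier results of these data known. Genes were named at called intrachromosomal partners, at interchromosomal partners with at least 2 PETs or found in both libraries, among flanking genes, among metal genes with at least 5 PETs, and as the 5 genes most alike. Some results on single genes named by this rule are not given here. Alternatives covered the PET minimum, the authors' threshold, identical stretches of at least 100 bp between anchors, the null share, the gene window and the promoter window. Identical stretches and exact copies of the Ronin-binding motif were searched in NCBIM37 with pysam 0.24.0. Statistics used Python 3.11.15, numpy 2.4.6, pandas 2.3.3, scipy 1.17.1 and matplotlib 3.10.9.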

Additional observations from a re-analysis of the deposited data

How the results depend on the processing

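Of 42 alternatives, 36 kept both the direction and the side of the threshold, or moved a value by less than its counting interval. The exceptions concerned the interchromosomal PETs of the metallothionein anchor, whose ratio relative to the libraries was 0.870 (adjusted p = 0.803, exact binomial test). It was 0.345 with pairs of at least 2 PETs (41 control and 12 knockout PETs, adjusted p = 0.00383 in the exact binomial test, over 314 anchors), 0.714 against the share of intrachromosomal PETs (adjusted p = 0.0174) and 0.352 against a share of 1 in 2 (adjusted p = 1.6e-28). The direction turned with pairs of adjusted p under 0.05 (1.15, exact binomial test, adjusted p = 0.884) and with each pair counted once (1.04, adjusted p = 1). Pairs of at least 2 PETs outside anchors of over 1000 PETs, a setting chosen after seeing the data, gave 0.505 (exact binomial test, adjusted p = 0.123), and over the libraries the knockout share of PETs in pairs of at least 2 PETs was 45.9% and 38.5% without those anchors. Scaled to equal interchromosomal totals, knockout PETs were at 87.0% of control in place of 35.2%, and called intrachromosomal PETs, scaled to equal intrachromosomal totals, at 54.7% in place of 26.9%. The comparison with the Eif4a1 anchor gave no value for pairs of at least 2 PETs, since that anchor had none in knockout cells.

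No paired analysis was possible because each condition had 1 merged library. Leaving out a replicate was likewise not possible. The intrachromosomal values rest on 9 knockout PETs in all, and their intervals are wide for that reason.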
